A study of Mus musculus with 6 samples.

Results

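Of 9 long noncoding RNAs chosen for description, Neat1, Malat1, Meg3, Rian, Miat, Snhg11, Snhg14 and Gas5 have a row in the deposited table of 12968 genes, and Mirg has none. They were chosen by gene symbol, by a rule that uses no measured value but was written with earlier results of these data known. All 8 passed the filter on low values (a mean of at least 10 scaled reads over the 6 libraries), as did 12549 genes in all. RNA was taken from the middle section of the left brain hemisphere of 6 mice by RiboTag immunoprecipitation. RiboTag mice carry an Rpl22 allele whose protein product gains an epitope tag once Cre recombinase has acted in a cell, and an antibody to the tag then pulls down ribosomes with whatever RNA is bound or carried along. The 3 MCAO mice had the middle cerebral artery closed for 1 h, and the 3 control mice had no occlusion. All 6 were killed after 3 days, and no sham operation is described. Astrocytes are the cells named in the title, but the sources used here do not state the Cre driver, strain, age or sex. A library stands for 1 mouse, and nothing used here measures the RNA that was left behind by the precipitation.

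Long noncoding RNAs have no long open reading frame that is known to be translated, and several work in the nucleus, so a ribosome pull-down is not where most of them are usually looked for. Neat1 is the scaffold of paraspeckles, nuclear bodies that hold certain RNAs and RNA-binding proteins, and is known to be induced by cell stress. Malat1 lies in nuclear speckles, where splicing factors gather. Meg3, Rian and Mirg are imprinted, maternally expressed transcripts of the Dlk1-Dio3 region and carry microRNAs or small nucleolar RNAs (snoRNAs, guides for chemical marks on other RNAs). Miat, also called Gomafu, is a nuclear RNA of neurons, and Snhg11 and Snhg14 are snoRNA host genes expressed in the brain. Snhg14 continues into a transcript antisense to Ube3a, which silences the paternal Ube3a copy in neurons. Gas5 is a snoRNA host gene that does meet ribosomes: its spliced RNA starts with a pyrimidine tract like that of ribosomal protein mRNAs and is degraded as it is translated.

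Positions are from RefSeq on GRCm38.p6. Malat1 (chromosome 19, 5795690 to 5802672) and Neat1 (chromosome 19, 5824708 to 5845480) are neighbours, with 22.0 kb between them. Meg3 (chromosome 12, 109540996 to 109571729) ends 32.2 kb before Rian (109603945 to 109661716), and Mirg (109734981 to 109749458) begins 73.3 kb after Rian. Snhg14 (chromosome 7, 59272737 to 60450177) is the longest by far, with a gene span of 1177.4 kb that holds 206 annotated snoRNAs. Rian holds 11 snoRNAs, Gas5 (chromosome 1, 161034601 to 161038539) 8 and Snhg11 (chromosome 2, 158375713 to 158386474) 2, while 0 lie in Miat (chromosome 5, 112213228 to 112228948), Neat1, Malat1 or Meg3. RefSeq places 2 microRNA genes in Meg3, 3 in Rian and 10 in Mirg. Genes of other kinds share part of the span of 5 members, among them Ube3a, Snrpn and Snurf for Snhg14 and Zbtb37 for Gas5. The sources used here do not state how reads were counted or whether strand was used, so reads from such overlaps cannot be told apart. Strand alone would not separate Snhg14 from Snrpn and Snurf, which lie in the same transcription unit.

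Promoter windows of 300 bases (250 before to 50 after a RefSeq start) were found for 8 of the 9 genes, 10 windows in all. They are shown for Meg3 and Gas5 because these are the 2 windows that hold the full cyclic AMP response element TGACGTCA, in capitals, which reads the same on both strands. That motif stands in 1.79% of all 32851 RefSeq promoter windows. It begins 57 bases before the Meg3 start and 46 bases before this Gas5 start. The Rian window is shown beside that of its neighbour Meg3, since reads of both are compared within each library. It holds 0 CpG pairs, against 13 in the Meg3 window shown and 1 in a second Meg3 window at another RefSeq start. Capitals at the start of Gas5 and Miat mark a run of at least 5 C or T bases that opens with C at the annotated start. Such a run is found in 2.51% of all windows and in 15.4% of the 52 windows of ribosomal protein genes. Meg3 and Gas5 each have a second window, not shown, that holds neither the motif nor such a run. A match is a description of letters only.
Meg3, chr12:109540746-109541045, plus strand: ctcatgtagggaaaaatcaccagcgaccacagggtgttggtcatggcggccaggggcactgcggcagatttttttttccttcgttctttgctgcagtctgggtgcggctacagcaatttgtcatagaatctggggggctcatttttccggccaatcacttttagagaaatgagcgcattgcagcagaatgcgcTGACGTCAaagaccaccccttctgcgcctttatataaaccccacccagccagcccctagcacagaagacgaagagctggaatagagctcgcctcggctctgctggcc
Rian, chr12:109603695-109603994, plus strand: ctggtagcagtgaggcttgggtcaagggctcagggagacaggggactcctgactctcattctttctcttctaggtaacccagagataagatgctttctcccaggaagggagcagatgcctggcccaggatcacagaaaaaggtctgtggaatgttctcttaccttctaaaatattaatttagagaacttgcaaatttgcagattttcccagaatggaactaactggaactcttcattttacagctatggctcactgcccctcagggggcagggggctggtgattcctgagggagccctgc
Gas5, chr1:161034916-161035215, plus strand: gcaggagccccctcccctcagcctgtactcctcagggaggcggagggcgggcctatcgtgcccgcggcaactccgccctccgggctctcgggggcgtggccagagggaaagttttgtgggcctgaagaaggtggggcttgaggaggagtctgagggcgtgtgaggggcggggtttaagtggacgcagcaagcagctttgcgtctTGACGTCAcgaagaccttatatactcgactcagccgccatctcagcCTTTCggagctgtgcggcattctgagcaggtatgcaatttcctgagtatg
Miat, chr5:112228899-112229198, minus strand: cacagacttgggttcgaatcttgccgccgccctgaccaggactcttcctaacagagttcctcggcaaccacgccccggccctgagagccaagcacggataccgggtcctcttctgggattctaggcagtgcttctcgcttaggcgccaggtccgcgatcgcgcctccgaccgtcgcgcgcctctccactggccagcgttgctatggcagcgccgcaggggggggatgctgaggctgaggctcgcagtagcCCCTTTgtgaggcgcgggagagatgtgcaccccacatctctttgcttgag

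Meg3 and Rian also carry microRNAs, and 2 mature pairs show what these host RNAs hold, with the seed (bases 2 to 8) in capitals and sequences from RefSeq on GRCm38.p6. The libraries were made from polyA RNA, and no mature microRNA was measured.
miR-770-5p in Meg3: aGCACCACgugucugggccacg
miR-770-3p in Meg3: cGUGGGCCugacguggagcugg
miR-370-5p in Rian: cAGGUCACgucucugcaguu
miR-370-3p in Rian: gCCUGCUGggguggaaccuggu

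Values are scaled read counts, that is, the reads of a gene divided by 1 scale factor per library. Depth ran from 882263 reads in MCAO 2 to 9519548 in control 1, and MCAO 2 and control 2 were the shallowest library of each group. In the shallowest library 1 read equals 3.11 scaled reads. Every member had reads in every library, from 6 reads of Snhg14 in MCAO 2 to 2570 reads of Meg3 in control 1. The Rpl22 mRNA itself stood at 251 ± 52.1 scaled reads after MCAO and 197 ± 32.8 in controls (SD, n = 3 each). The precipitates held markers of more cell types than astrocytes. The summed level of 14 astrocyte markers ran from 49901 to 64906 scaled reads in MCAO libraries and from 53264 to 87028 in controls. That of 15 neuron markers ran from 23538 to 26723 in MCAO libraries and from 23402 to 28615 in controls, and no marker of either list was at the floor of the table in any library.

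None of the 8 long noncoding RNAs passed the test between MCAO and control mice. The limma test, on log2(scaled read count + 1) with p-values adjusted over all 12549 genes, called 0 of 8 at an adjusted p under 0.05, where 3.08% of all tested genes were called. At an unadjusted p under 0.05 were 2 of the 8, Neat1 and Snhg14, beside 19.3% of all tested genes. These 2 genes were also those whose groups did not overlap, Neat1 higher and Snhg14 lower in every MCAO library. The groups did not overlap for 24.9% of tested genes, 12.4% higher and 12.5% lower. Both shares are near those of the whole table. The median log2 change of the 8 was 0.22, that of all tested genes -0.01, and 6 of the 8 were above 0. Without MCAO 2 that median was -0.0090 with 4 above 0, and without MCAO 3 it was 0.50 with 7 above 0. By direction, limma called 2.3% of tested genes higher and 0.789% lower. On reads recovered from the table, edgeR called 4.14% of genes (3.06% higher and 1.08% lower) and DESeq2 4.38% (3.09% higher and 1.28% lower), and Neat1 was the 1 member called by each. Limma with library weights called 7.98% of genes (4.51% higher and 3.47% lower), and limma without MCAO 3 called 1.18% (0.956% higher and 0.223% lower). In both of these too Neat1 was the 1 member called.

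**Figure D1:**
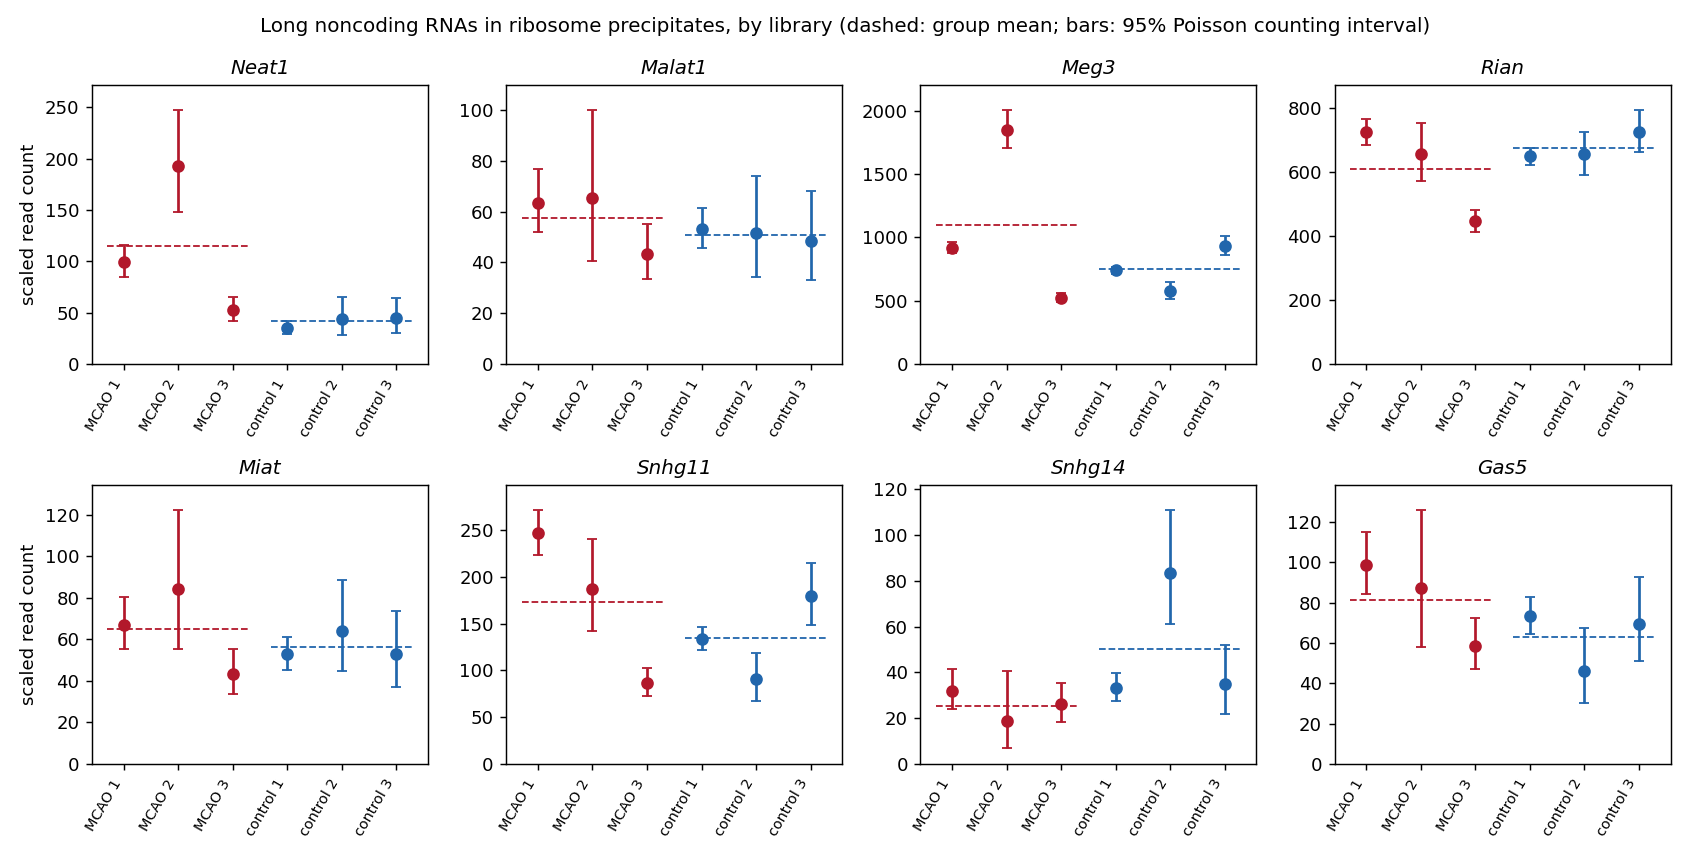
Scaled read count (y axis, linear, from 0) of each long noncoding RNA in the 3 MCAO and 3 control libraries. Points are libraries with their 95% Poisson counting interval, and dashed lines are group means. Neat1 was higher and Snhg14 lower in all MCAO libraries than in any control, and MCAO 2 stands high in Neat1 and Meg3 at 193 and 1848.

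Neat1, the paraspeckle scaffold, had 99.4, 193 and 52.6 scaled reads in MCAO 1, 2 and 3, against 35.4, 44.3 and 45.3 in controls 1, 2 and 3. All MCAO libraries were above all controls, though MCAO 3 only by a little: its counting interval of 41.7 to 65.6 overlaps that of control 3, at 30.5 to 64.6. The groups averaged 115 ± 71.4 after MCAO and 41.7 ± 5.45 in controls (SD, n = 3 each), a ratio of means of 2.76. The log2 change was 1.26 (SE 0.36, 95% interval 0.49 to 2.02), with a limma adjusted p of 0.0761. The MCAO mice differed more among themselves than the controls did, with a highest over lowest value of 3.66 in MCAO libraries and 1.28 in controls. The spread of Neat1 within groups (SD 0.67 on the log2 scale) was larger than that of 98% of the 5245 tested genes with a mean within a factor of 2 of its own.

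The call of Neat1 turned on the test and on MCAO 3. It was called by edgeR (log2 change 1.37, adjusted p = 0.0373), by DESeq2 (1.42, adjusted p = 0.00684) and by limma with library weights (1.02, adjusted p = 0.0351). Without MCAO 3 it was called by limma (1.72, adjusted p = 0.0148), and without MCAO 2 the log2 change was 0.79 (adjusted p = 0.234). Over the 19 alternatives tried for this gene the log2 change lay between 0.79 and 1.72 and the adjusted p between 0.00684 and 0.235.

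**Figure D2:**
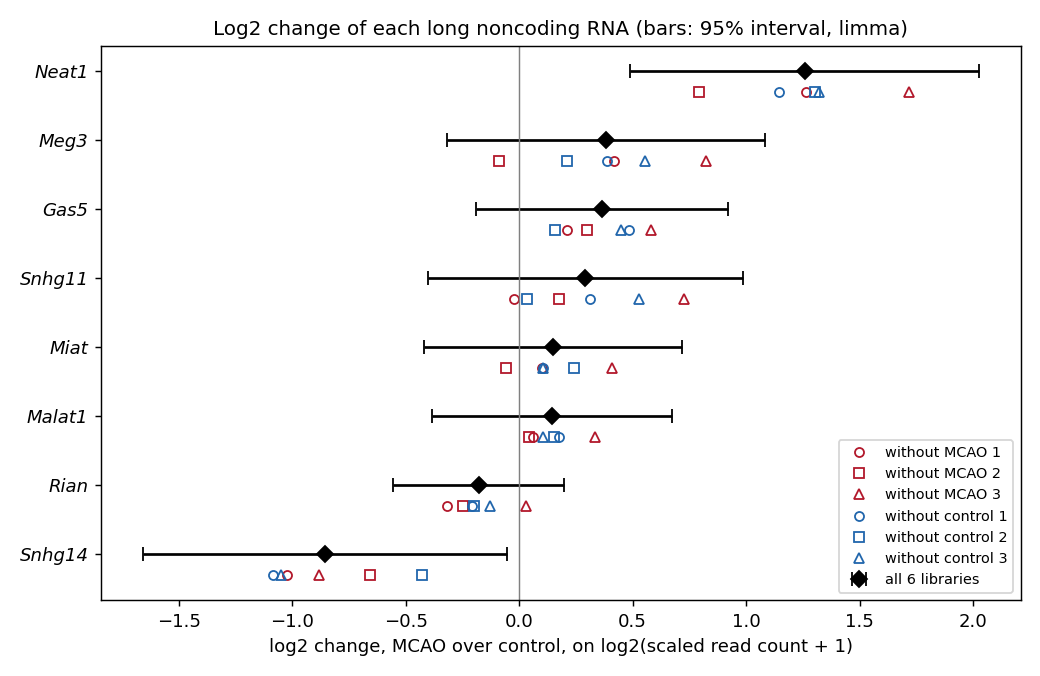
Log2 change (x axis, MCAO over control) of each long noncoding RNA with its 95% interval from limma (black), and the same without each of the 6 libraries (open symbols below). Neat1 lies highest at 1.26 and Snhg14 lowest at -0.85, and leaving out a library puts Meg3, Snhg11, Miat and Rian on the other side of 0.

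Among tested genes in the upper 50% by mean, those most like Neat1 over the 6 libraries were transcripts of the mitochondrial genome. These are translated inside mitochondria and not on the tagged cytoplasmic ribosomes. Likeness was the root mean square difference of log2 values centred on each gene's mean. The candidates were 6124 tested genes with a symbol and a mean in the upper 50%. Neat1 itself has a mean below that cut, so genes of its own mean level or lower were not among the candidates. The nearest were mt-Nd5 (0.32), mt-Nd1 (0.32) and mt-Co1 (0.33), which encode subunits of respiratory complexes I and IV. mt-Nd1 had 5596, 6009 and 2541 scaled reads in MCAO 1, 2 and 3, against 1486, 1469 and 1479 in controls 1, 2 and 3. As for Neat1, MCAO 3 was the lowest of the MCAO libraries and still above the controls. These genes were chosen on the same 6 values, so a shared order and rise follow in part from the choice. mt-Nd1 rose by 1.57 (SE 0.26, limma adjusted p = 0.00368) and mt-Nd5 by 1.14 (SE 0.23, limma adjusted p = 0.0159). mt-Co1 had a log2 change of 0.96 (limma adjusted p = 0.0805) and was not called. Of the 8 members, Neat1 lay farthest from its nearest candidate gene. The distance is not scaled to a gene's own spread, so members that vary little tend to have small distances. On the centred log2 scale Neat1 stood at 0.61 and 1.56 in MCAO 1 and 2, where mt-Nd5 stood at 0.91 and 0.92. Likeness here is a description of 6 libraries and has no test.

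**Figure D3:**
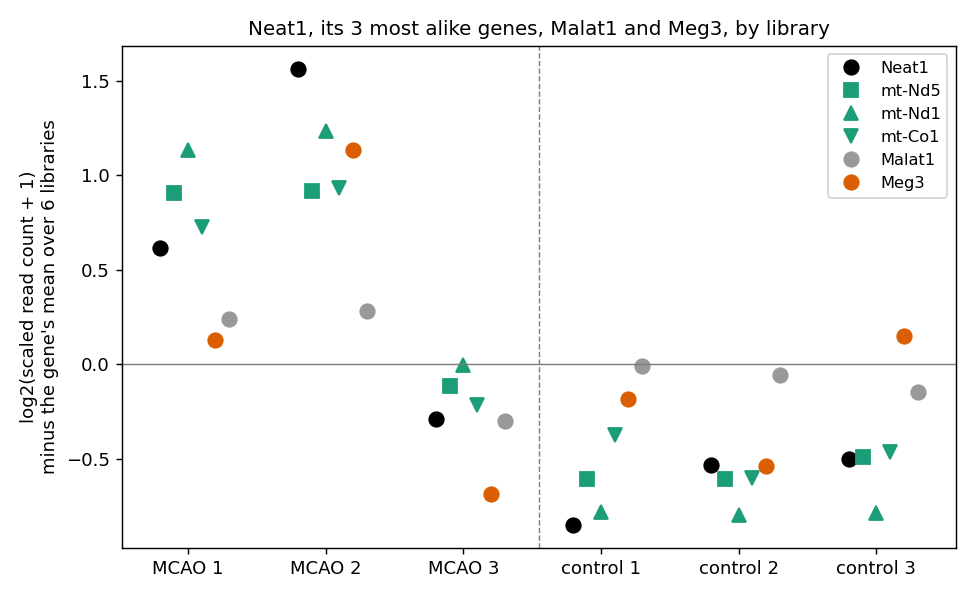
The y axis is log2(scaled read count + 1) minus the mean over 6 libraries. Shown are Neat1, the 3 candidate genes most like it, Malat1 and Meg3, in each library (x axis). Neat1 and the mitochondrial transcripts are high in MCAO 1 and MCAO 2 and lower in MCAO 3 and the controls. Malat1 lies between -0.30 and 0.28.

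Malat1, the speckle RNA next to Neat1 on the chromosome, had 63.5, 65.3 and 43.3 scaled reads in MCAO 1, 2 and 3, against 53.2, 51.4 and 48.3 in controls 1, 2 and 3. The groups overlap, with MCAO libraries both highest and lowest. Its log2 change was 0.15 (SE 0.25), with a 95% interval of -0.38 to 0.67 and a limma adjusted p of 0.791. Behind these values lay 21 to 185 reads per library. Within a library, log2 Neat1 minus log2 Malat1 was 0.64, 1.55 and 0.28 in MCAO 1, 2 and 3, against -0.58, -0.21 and -0.09 in controls 1, 2 and 3. The MCAO libraries were all above the controls, by 1.11 (SE 0.41) on average, and with a pseudocount of 10 in place of 1 by 0.99. The two-sided exact permutation p was 0.1, the smallest that 3 against 3 mice allow, and 0.583 when adjusted over the 7 pairs compared.

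Meg3, the maternally expressed RNA at the head of the Dlk1-Dio3 cluster, had 920, 1848 and 523 scaled reads in MCAO 1, 2 and 3, against 740, 578 and 934 in controls 1, 2 and 3. MCAO libraries held both the highest and the lowest value. The log2 change was 0.38 (SE 0.33, 95% interval -0.32 to 1.09, limma adjusted p = 0.553), and it was -0.09 without MCAO 2. Counting error is small beside this spread, since the interval of MCAO 2 ran from 1702 to 2002 and that of MCAO 3 from 487 to 561. The spread of Meg3 within groups (SD 0.69 on the log2 scale) was larger than that of 99.8% of the 1042 tested genes with a mean within a factor of 2 of its own.

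Rian, its downstream neighbour and a host of snoRNAs, had 725, 656 and 446 scaled reads in MCAO 1, 2 and 3, against 648, 655 and 724 in controls 1, 2 and 3. MCAO 3 was low and the other 5 libraries lay close together. The log2 change was -0.18 (SE 0.18, 95% interval -0.56 to 0.20, limma adjusted p = 0.614), and it was 0.03 without MCAO 3. The ratio of Meg3 to Rian reads within a library, formed after adding 1 to each value, was 1.27, 2.81 and 1.17 in MCAO 1, 2 and 3, against 1.14, 0.884 and 1.29 in controls 1, 2 and 3. MCAO 2 therefore stood apart in Meg3 and not in Rian. The mean difference between groups of log2 Meg3 minus log2 Rian was 0.56 (SE 0.43, exact permutation p = 0.3, adjusted 0.583), and it was 0.16 without MCAO 2. Of 6 listed coding genes of this region, 4 were tested and limma, edgeR and DESeq2 called 0 of them, with 0 at an unadjusted p under 0.05. The 2 most abundant were Ppp2r5c, a regulatory subunit gene of protein phosphatase 2A, with a log2 change of 0.01, and Begain, a postsynaptic protein gene, with 0.02. Dlk1, the paternally expressed Notch ligand homologue that gives the region its name and was added after its values were seen, averaged 129 ± 35.7 after MCAO and 112 ± 16.8 in controls (SD, n = 3 each).

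**Figure D4:**
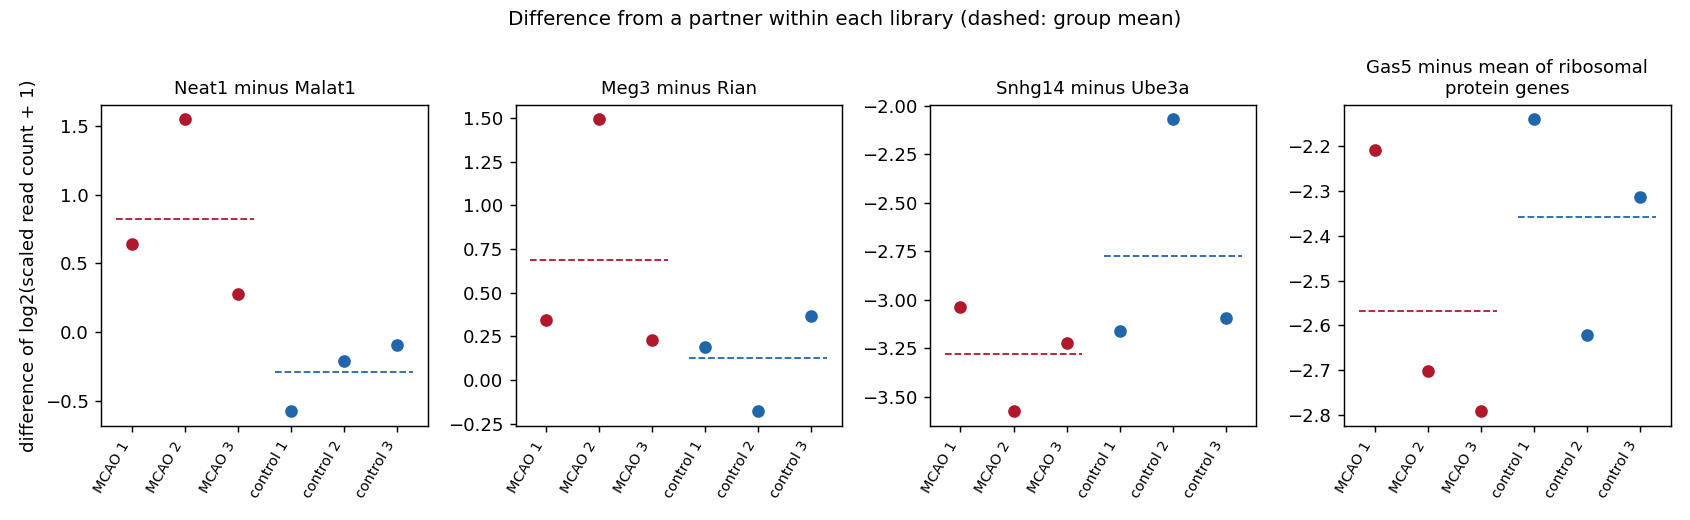
Difference of log2(scaled read count + 1) between a long noncoding RNA and its partner within each library (y axis, not from 0), for 4 of the 7 pairs, with MCAO libraries left and dashed group means. Only Neat1 minus Malat1, among these 4, has all MCAO libraries on one side of the controls, and Meg3 minus Rian is highest in MCAO 2 at 1.49.

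Miat, the neuronal nuclear RNA, had 67.1, 84.0 and 43.3 scaled reads in MCAO 1, 2 and 3, against 52.7, 63.9 and 52.8 in controls 1, 2 and 3. Its groups overlap, with a log2 change of 0.15 (SE 0.27, 95% interval -0.42 to 0.72, limma adjusted p = 0.799), and of -0.06 without MCAO 2. Snhg11, a brain snoRNA host gene, had 247, 187 and 86.6 scaled reads in MCAO 1, 2 and 3, against 133, 90.5 and 180 in controls 1, 2 and 3. MCAO 1 was the highest and MCAO 3 the lowest of the 6 libraries. The log2 change was 0.29 (SE 0.32, 95% interval -0.40 to 0.99, limma adjusted p = 0.662), and -0.02 without MCAO 1. Like Neat1 and Meg3, Snhg11 varied widely within groups, more than 99.4% of the 4783 tested genes of like level (SD 0.65 on the log2 scale).

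Neuron markers gave no call. Of 15 neuron markers limma, edgeR and DESeq2 called 0, with 1 at an unadjusted p under 0.05 by limma, and their median log2 change was -0.02. Syp, a synaptic vesicle membrane protein gene, averaged 6367 ± 198 scaled reads after MCAO and 6558 ± 1019 in controls (SD, n = 3 each). Against the mean of the neuron markers in the same library, Meg3 differed between groups by 0.44 (SE 0.57), Snhg11 by 0.35 (SE 0.51) and Miat by 0.21 (SE 0.25) on the log2 scale. The exact permutation p of these 3 differences was 0.5, 0.5 and 0.6, and 0.583, 0.583 and 0.6 when adjusted over the 7 pairs. In these bulk samples fewer cells of a type and less RNA per cell cannot be told apart.

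Snhg14, which runs on into the Ube3a antisense transcript, had 31.8, 18.7 and 26.0 scaled reads in MCAO 1, 2 and 3, against 33.1, 83.4 and 34.7 in controls 1, 2 and 3. All MCAO libraries were below all controls, but MCAO 1 lay within the counting error of controls 1 and 3. The wide gap was to control 2, whose interval ran from 61.3 to 111. MCAO 2 rested on 6 reads, with an interval of 6.85 to 40.6. The groups averaged 25.5 ± 6.57 after MCAO and 50.4 ± 28.6 in controls (SD, n = 3 each), with a log2 change of -0.85 (SE 0.37, 95% interval -1.66 to -0.05, limma adjusted p = 0.232). Without control 2 it was -0.43, and without control 2 and MCAO 2 it was -0.23.

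Ube3a, Snrpn and Snurf, coding genes that share the Snhg14 span, were not called either. Ube3a, a ubiquitin ligase gene, had 268, 233 and 250 scaled reads in MCAO 1, 2 and 3, against 304, 353 and 303 in controls 1, 2 and 3. Its log2 change was -0.35 (SE 0.15, limma adjusted p = 0.212), and RefSeq lets 38101 bases of its span overlap Snhg14. Control 2 was highest in both genes. Log2 Snhg14 minus log2 Ube3a differed between groups by -0.50 (SE 0.39, exact permutation p = 0.3, adjusted 0.583), and by -0.15 without control 2. Snrpn, which encodes a small nuclear ribonucleoprotein and shares the start of the transcription unit, averaged 1397 ± 218 after MCAO and 1241 ± 63.4 in controls (SD, n = 3 each). Snurf, a small coding gene upstream in the same unit, stood at the floor of 1, at 3.11 and at 16.7 scaled reads in MCAO 1, 2 and 3, against 14.1, 16.0 and 27.2 in controls 1, 2 and 3. Its groups overlap through MCAO 3, and its limma adjusted p was 0.182. Of 10 listed coding genes of the region 7 were tested, limma, edgeR and DESeq2 called 0 of them, and 4 were at an unadjusted p under 0.05 by limma. Without MCAO 1, limma called 1 of them lower.

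Gas5, the member with a known link to translation, had 98.8, 87.1 and 58.6 scaled reads in MCAO 1, 2 and 3, against 73.1, 46.1 and 69.4 in controls 1, 2 and 3. The groups overlap through MCAO 3, and the log2 change was 0.36 (SE 0.26, 95% interval -0.19 to 0.92, limma adjusted p = 0.473). The ribosomal protein genes, whose mRNAs are known to open with a pyrimidine tract, include many that rose. At the RefSeq starts used here such a run was found in only 15.4% of their 52 windows. Of 59 such genes 20 rose and 0 fell by limma, and all 59 had a positive log2 change, with a median of 0.60. Rplp0, a protein of the ribosomal stalk, rose to 527 ± 72.4 scaled reads after MCAO, against 271 ± 13.9 in controls (SD, n = 3 each; log2 change 0.95, limma adjusted p = 0.00268). Rps29, a small subunit protein gene, rose by 0.93 (SE 0.19, limma adjusted p = 0.0180). Rpl21 rose by 0.89 (SE 0.22, limma adjusted p = 0.0455) and Rpl32, like Rpl21 a large subunit protein gene, by 0.83 (SE 0.20, limma adjusted p = 0.0394). Many ribosomal protein genes have processed pseudogenes, and the sources used here do not state how reads shared with them were counted. Log2 Gas5 minus the mean of these genes was -2.21, -2.70 and -2.79 in MCAO 1, 2 and 3, against -2.14, -2.62 and -2.31 in controls 1, 2 and 3. The groups overlap, and their difference was -0.21 (SE 0.23, exact permutation p = 0.4, adjusted 0.583).

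The count of risen ribosomal protein genes was not stable: it was 0 with no intensity trend, 6, 1 and 10 without MCAO 1, 2 and 3, and 3, 6 and 8 without controls 1, 2 and 3. Their median stayed above 0 under each of the 19 alternatives, between 0.38 and 0.68. In the same libraries microglia markers were higher, with 10 of 14 called and a summed level of 2302 to 3113 in MCAO libraries against 625 to 851 in controls, and their part in this result was not tested.

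Few of the other snoRNA host genes could be tested. Of 18 listed, 7 were in the table, and 5 of these passed the filter on the mean. Limma, edgeR and DESeq2 called 0 of the 5, with 1 at an unadjusted p under 0.05 by limma, and the median log2 change was 0.62. Zfas1 averaged 48.4 ± 12.9 scaled reads after MCAO and 31.0 ± 7.44 in controls, and Snhg8 32.3 ± 12.6 after MCAO and 20.4 ± 8.54 in controls (SD, n = 3 each). Zfas1 had a log2 change of 0.62 (SE 0.30, limma adjusted p = 0.278) and Snhg8 of 0.63 (SE 0.41, limma adjusted p = 0.427).

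Genes that encode proteins of paraspeckles, nuclear speckles and nonsense-mediated decay showed no calls, and no protein was measured. All 18 listed paraspeckle protein genes were tested and limma, edgeR and DESeq2 called 0 of them, with 2 at an unadjusted p under 0.05 by limma and a median log2 change of -0.03. Hnrnpa1, an RNA-binding protein gene, averaged 915 ± 262 scaled reads after MCAO and 686 ± 26.9 in controls, and Hnrnpk 761 ± 78.4 after MCAO and 834 ± 27.3 in controls (SD, n = 3 each). Of 16 nuclear speckle protein genes, 0 were called by limma, edgeR or DESeq2, with 1 at an unadjusted p under 0.05 and a median of 0.05. Son, a scaffold protein of speckles, averaged 298 ± 57.1 after MCAO and 388 ± 14.2 in controls, and the splicing factor gene Sf3b1 435 ± 37.8 after MCAO and 413 ± 72.2 in controls (SD, n = 3 each). Of 14 genes of nonsense-mediated decay, the pathway that degrades Gas5 RNA, 0 were called by the same 3 tools and 0 were at an unadjusted p under 0.05, with a median of -0.01. Upf2 averaged 251 ± 60.1 after MCAO and 287 ± 57.6 in controls, and Smg5 222 ± 17.4 after MCAO and 254 ± 37.4 in controls (SD, n = 3 each).

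**Figure D5:**
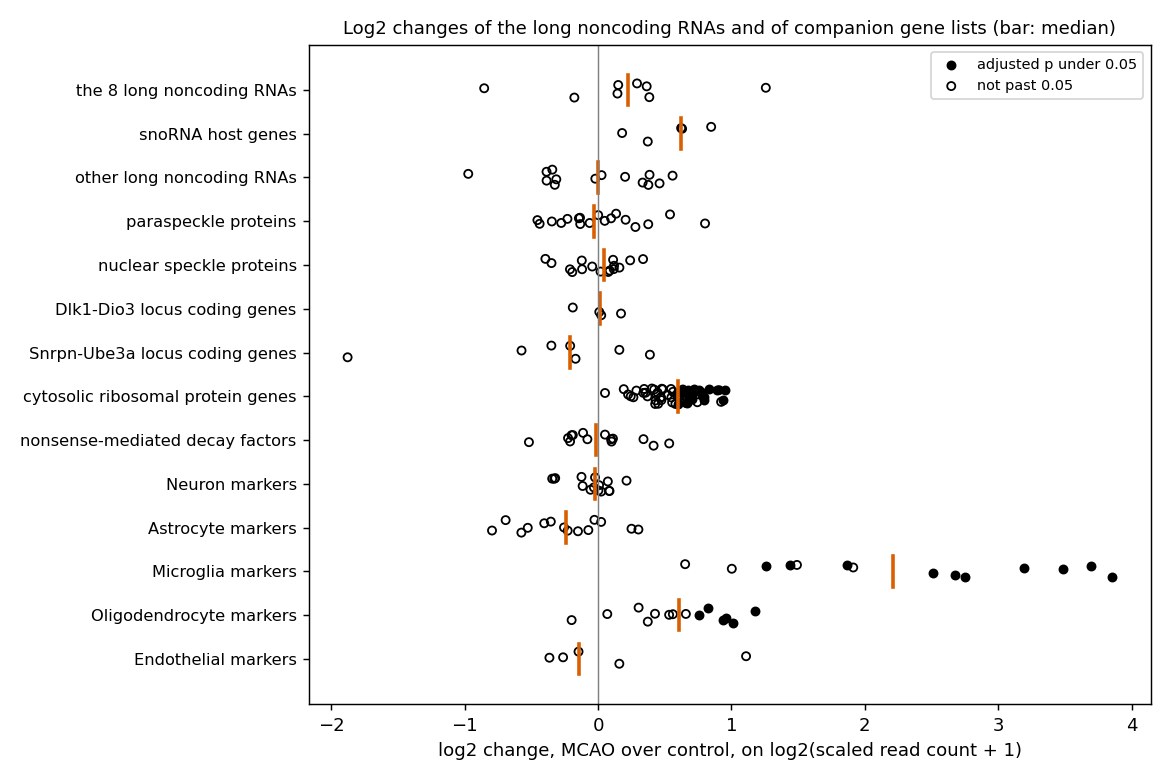
Log2 change (x axis, MCAO over control) of each tested gene, by list (rows), with filled points for a limma adjusted p under 0.05 and a bar at the list's median. The 8 long noncoding RNAs lie between -0.85 and 1.26 with no filled point, while filled points stand among ribosomal protein, microglia and oligodendrocyte genes.

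The same measure of likeness was taken for the other members. Malat1, Miat, Snhg14 and Gas5, like Neat1, have means below the cut that candidates had to pass. Malat1 was nearest to Tmem248 (0.06), Ctnna2 (0.07), a catenin gene of neurons, and Pcp4l1 (0.08). Rian was nearest to Tmcc2 (0.05), the neuronal phosphatase gene Ptpn5 (0.07) and Tbpl1 (0.07). Miat was nearest to Gap43 (0.10), a gene of axon growth cones, Necab3 (0.11) and March5 (0.11). Gas5 was nearest to the histone gene H3f3b (0.11), Nr1h2 (0.12) and Syndig1 (0.12), and these distances are small beside those of the remaining members. Meg3 was nearest to Tmem191c (0.24), Fndc10 (0.24) and Dbn1 (0.27), an actin-binding protein gene of dendritic spines. Snhg11 lay nearest to another member and snoRNA host gene, Gas5 (0.27), and among the candidate genes to Dzip1 (0.29), Srsf11 (0.31) and Syndig1 (0.31). Snhg14 was nearest to Zfp60 (0.24), Atl3 (0.25) and Epm2aip1 (0.25). Between members the nearest were Malat1 and Miat (0.14). Malat1 varied little, between -0.30 and 0.28 on the centred log2 scale, which by itself keeps its distances small. The member nearest to Neat1 was Meg3 (0.49) and that nearest to Snhg14 was Rian (0.63).

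The libraries within a group also differed for these RNAs. MCAO 3 was the lowest of the 3 MCAO libraries for 7 of the 8, all but Snhg14, where this was so for 29.3% of all tested genes. The same held for 55 of 59 ribosomal protein genes, 4 of 5 other snoRNA host genes and 4 of 4 Dlk1-Dio3 coding genes. It held for 9 of 15 neuron markers, 8 of 14 other long noncoding RNAs, 4 of 7 Snrpn-Ube3a coding genes and 7 of 14 nonsense-mediated decay genes. The counts were 6 of 14 oligodendrocyte, 2 of 5 endothelial and 4 of 14 microglia markers. They were 6 of 16 nuclear speckle and 5 of 18 paraspeckle protein genes, and 0 of 14 astrocyte markers. MCAO 3 was the lowest of all 6 libraries for 5 of the 8 (Malat1, Meg3, Rian, Miat and Snhg11), where this was so for 13.4% of tested genes. The summed level of the 8 was 1279 in MCAO 3, which is below the lowest control at 1613, and 3138 in MCAO 2, which is above the highest control at 2089. Meg3 carries much of this sum. Without it the other 7 summed to 1332, 1291 and 756 in MCAO 1, 2 and 3, against 1029, 1034 and 1154 in controls 1, 2 and 3, so that MCAO 2 was no longer the highest and MCAO 3 was still the lowest. The 8 values of a library share its preparation and are not independent. Among cell type markers oligodendrocyte genes were also higher after MCAO, with 6 of 14 called and summed levels of 13185 to 16534 in MCAO libraries against 8893 to 10048 in controls. That count was 1 with no intensity trend, 3 without MCAO 1, 2 without MCAO 3 and 3 without control 1. Astrocyte and endothelial markers had 0 of 14 and 0 of 5 tested genes called by limma, with medians of -0.24 and -0.15. For astrocyte markers this rested on control 2: without it 5 of 14 were called lower with a median of -0.54, and without control 2 and MCAO 2 it was 8 with a median of -0.66. With library weights 5 were called lower. The endothelial median was 0.09 without MCAO 2, 0.08 without MCAO 3 and 0.04 without control 3. By DESeq2 2 astrocyte markers were called and by edgeR 0, and 3 were at an unadjusted p under 0.05 by limma, while for endothelial markers all 3 counts were 0. The part of these cell types in the values of the 8 RNAs was not tested.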

How the data were processed

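PolyA RNA from RiboTag precipitates was made into libraries with an Illumina TruSeq kit, per the labels' protocols. The RNA of each animal was precipitated 2 times and pooled, and 2 technical replicates per animal form 1 deposited column. The submitters' processing notes name the build mm10 and the tools DESeq2, R 3.3.1, Partek 6.6, HISAT2 and CASAVA 1.8, without saying what each was used for. The sources used here do not state how reads were counted, whether strand was used, or how genes were filtered and values scaled. The deposited values are a normalised signal that the values show to be reads per gene divided by 1 factor per library, with values under 1 set to 1. Division by the step gave whole reads, within 0.1 read, for 99.946% of values above this floor in control 1 and 100% in the other libraries. The stricter reading of the lowest values passed for MCAO 2 only. Recovered reads numbered 4567615, 882263 and 4027185 in MCAO 1, 2 and 3 and 9519548, 1538901 and 1816934 in controls 1, 2 and 3. Values at the floor were taken as 0 reads for the count tests. Intervals are exact Poisson intervals at 95% and show counting error alone, as reads can be PCR copies of 1 molecule.

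Groups came from the labels, and replicate numbers follow record order. The main test was limma 3.58.1 in R 4.3.3 (moderated by empirical Bayes with a trend on intensity; two-sided; Benjamini-Hochberg over 12549 genes) on log2(value + 1), a scale on which low genes change too little. Standard errors (SE) of genes tested by limma are moderated. Those of the pair differences are not moderated and come from the SD of each group. Alternatives were edgeR 4.0.16 (quasi-likelihood, 520 genes called, against 387 by limma), DESeq2 1.42.0 (549 genes called), pseudocounts, filters, scalings, library weights and libraries left out. The limma, edgeR and DESeq2 tests were also run on counts simulated with the same spread beyond counting error for every gene and library. Those counts lack the unequal spread between the real libraries, so they cannot show how the call of Neat1 bears it. Pairs were compared by a two-sided exact permutation test, Benjamini-Hochberg over 7 pairs. Named were all members, the called or else most abundant genes of each companion list, and the 3 candidate genes most like each member. A gene that this rule names in the Snrpn-Ube3a list is not reported here. Members, lists and alternatives were chosen with earlier results of these data known, and those for the pairs after seeing the data. The labels do not say more of how animals were handled, so p-values measure the spread between these mice.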

Additional observations from a re-analysis of the deposited data

How the results depend on the processing

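No paired analysis was possible because the labels give the groups no shared replicate numbers. The 0 calls of fallen members held under all 19 alternatives, and the 0 calls of risen members under all but 4, where Neat1 made the count 1: edgeR (log2 change 1.37), DESeq2 (1.42), library weights (1.02) and leaving out MCAO 3. Leaving out 1 library gave 0 to 1 risen members and a Neat1 log2 change of 0.79 to 1.72. It gave 148 to 306 called genes over the whole table, against 387, while 157 were called with no intensity trend and 1002 with library weights. Over the alternatives the direction changed 3 times each for Meg3 and Snhg11 and 1 time each for Rian and Miat. It did not change for the other members. The log2 change of Meg3 was -0.0023 with library weights and -0.26 without control 2 and MCAO 2, and ranged from -0.0869 to 0.82 with 1 library left out. That of Snhg11 was -0.0157 and -0.0806 under the same 2 settings and ranged from -0.0247 to 0.72. Leaving out 1 library gave -0.32 to 0.0314 for Rian and -0.0594 to 0.41 for Miat. Against the neuron markers, Meg3 differed by -0.27 and Snhg11 by -0.0939 without control 2 and MCAO 2, and 1 library left out gave -0.0384 to 0.83 for Meg3, 0.0316 to 0.73 for Snhg11 and -0.0109 to 0.41 for Miat. The cause was not tested. Snhg14 has no value at a mean of at least 50, which it does not reach. Depth limits Snhg14 most, with 6 reads in MCAO 2.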

Other observations

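Among 33 other long noncoding RNAs listed, 14 were in the table and tested. Limma called 0 of them, with 2 at an unadjusted p under 0.05, and edgeR and DESeq2 called 1 each, 2900097C17Rik, a symbol that RefSeq now gives as a synonym of Norad and of Bscl2, so which of them was counted is unknown. It had 32.4, 84.0 and 58.6 scaled reads in MCAO 1, 2 and 3, against 115, 112 and 96.6 in controls 1, 2 and 3, lower in all 3 MCAO libraries. Its log2 change was -0.97 (SE 0.29, limma adjusted p = 0.0867), with an adjusted p of 0.0389 by edgeR and 0.0366 by DESeq2. Without MCAO 2 limma called it too (log2 change -1.28, adjusted p = 0.0247). The most abundant of the list were 1700020I14Rik, at 1844 ± 401 scaled reads after MCAO and 2271 ± 294 in controls, and the imprinted brain RNA Peg13, at 840 ± 79.9 after MCAO and 1095 ± 40.9 in controls (SD, n = 3 each). Peg13 was lower in every MCAO library, with a log2 change of -0.39 (SE 0.14, limma adjusted p = 0.153). Limma called Peg13 with library weights (-0.43, adjusted p = 0.0308) and without control 2 and MCAO 2 (-0.48, adjusted p = 0.0427).

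In the Snrpn-Ube3a region Ndn, a paternally expressed growth suppressor gene chosen here after its values were seen, had 780, 613 and 558 scaled reads in MCAO 1, 2 and 3, against 494, 449 and 536 in controls 1, 2 and 3. This is the opposite direction to Snhg14 and Ube3a, and its log2 change of 0.39 (SE 0.16) was not called (limma adjusted p = 0.197). Zbtb37 overlaps the first 264 bases of the Gas5 span in RefSeq, which lie before the Gas5 start whose window is shown above. Also chosen after its values were seen, Zbtb37 had 9.41, 3.11 and 12.7 scaled reads in MCAO 1, 2 and 3, against 16.1, 28.4 and 22.6 in controls 1, 2 and 3 (limma adjusted p = 0.163).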
